A study of Mus musculus with 4 samples.

Results

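Of the 22558 genes in the deposited expression table, 46 have a symbol made of Mmp, Adamts or Timp followed by a digit: 23 matrix metalloproteinases, 19 ADAMTS enzymes and all 4 tissue inhibitors of metalloproteinases (TIMPs). They were chosen by symbol alone and were read in eyes of 6-week-old Abca4-/-Rdh8-/- mice, which lack a retinaldehyde flippase and a retinol dehydrogenase of photoreceptors and whose retinas are prone to damage by bright light. The 4 groups are a control without light and eyes taken 3 h, 24 h and 7 days after light exposure. All groups share the same double knockout and the same age, so neither the knockout nor age can be read from these comparisons, and each is labelled as eyes from 3 mice. The table holds 1 value per gene and group, in FPKM (mapped fragments per kilobase of transcript, scaled to the size of the library), so no difference below has a replicate check and none was tested. The sources used here do not give how strong or how long the exposure was.

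Matrix metalloproteinases are zinc enzymes, secreted or held in the cell membrane, that cut collagens, laminins, elastin and many other proteins around cells. ADAMTS enzymes are secreted relatives with thrombospondin repeats, and different members cut proteoglycans, trim procollagens or act on von Willebrand factor. TIMPs bind the active site of these proteases and block it. In the eye the balance of proteases and TIMPs is known for its part in the upkeep of the cornea, sclera, outflow pathway and Bruch's membrane, and inherited variants of TIMP3 cause a dystrophy of the macula.

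Of the 46 genes, 26 reached a mean of 1 FPKM over the 4 samples: 12 metalloproteinases, 11 ADAMTS genes and 3 TIMPs. The remaining 20 lay below it. Just above the threshold were Adamts16 (mean 1.02 FPKM) and Adamts9 (1.34 FPKM), and just below it Timp4 (0.955 FPKM) and Mmp12 (0.762 FPKM). Where 4 values follow a gene, they stand in the order control, 3 h, 24 h and 7 days. Changes are given as plain ratios of FPKM and as differences of log2(FPKM + 1), a scale that understates the change of low genes. A gene is counted as higher or lower at a difference of at least 1 log2 unit, and a smaller size of 0.5 log2 units is also given because few members reached the first.

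Timp1 was the only one of the 26 past 1 log2 unit in any comparison: it was high in the 24 h sample and near its control level at 3 h. Against the control, the other changes were mostly small and mostly downward, with Mmp14, Adamts15, Adamts4, Adamts2 and Mmp2 furthest below it at 3 h. These 5 genes were below the control in all 3 light samples. The most abundant members, Timp3, Timp2 and Mmp3, differed by at most 0.35 log2 units from the control at any time.

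Promoter sequences were taken from RefSeq for assembly GRCm38.p6, whereas the expression values were made on mm9. Of the 46 genes, 32 had an entry, and the 250 bases before each annotated start were searched on both strands for 4 motifs. The motifs were TGANTCA (AP-1), TTCNNNGAA (STAT), GGGCGG (the GC box) and TATAAA (the TATA box). A match describes the letters and not a bound site. Shown first are Timp1, the member that was higher at 24 h, and Mmp14 and Adamts2, which were low after light, written 5′ to 3′ on the gene's strand with matches in capitals.

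Timp1, chrX:20869916-20870165, plus strand: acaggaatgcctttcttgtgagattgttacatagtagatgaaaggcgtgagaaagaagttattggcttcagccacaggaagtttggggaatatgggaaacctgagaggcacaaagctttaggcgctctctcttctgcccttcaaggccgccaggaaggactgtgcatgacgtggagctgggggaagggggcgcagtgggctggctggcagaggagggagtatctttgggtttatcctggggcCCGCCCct
Mmp14, chr14:54431348-54431597, plus strand: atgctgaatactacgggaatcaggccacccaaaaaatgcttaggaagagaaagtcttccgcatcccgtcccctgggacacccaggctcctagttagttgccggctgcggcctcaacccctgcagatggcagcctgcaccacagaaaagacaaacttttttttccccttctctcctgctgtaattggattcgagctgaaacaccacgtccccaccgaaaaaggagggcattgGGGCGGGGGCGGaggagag
Adamts2, chr11:50601835-50602084, plus strand: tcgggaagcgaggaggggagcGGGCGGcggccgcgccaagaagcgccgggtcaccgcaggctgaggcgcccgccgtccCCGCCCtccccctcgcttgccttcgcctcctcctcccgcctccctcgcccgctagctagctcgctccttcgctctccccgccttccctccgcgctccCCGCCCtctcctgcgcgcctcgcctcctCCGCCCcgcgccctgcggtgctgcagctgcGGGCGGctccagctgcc

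Among the 15 genes with an entry and a mean of at least 1 FPKM, 13 held a GC box, as did 16 of all 32 genes with an entry. Of all 32851 promoter windows of this length, from genes at any level, 32.7% held one. A gene can have more than 1 window. The Timp1 window held 1 GC box, 8 bases before the start, and no match to the other 3 motifs. Mmp14 held 2 adjoining GC boxes, and Adamts2 held 5. The bases just after the annotated start were found in a GENCODE transcript for Timp1 and Adamts2 but not for Mmp14, so the place of the Mmp14 window is less certain. An AP-1 match was found in 8 of the 32 genes, against 6.75% of all windows. Only 1 of the 15 genes with a mean of at least 1 FPKM held one, Mmp3. All 8 genes with a match lie on chromosome 9. In the GENCODE annotation of GRCm38, 9 protein-coding metalloproteinase genes follow each other there, with Mmp1a, which that annotation classes as a polymorphic pseudogene, between Mmp3 and Mmp10. The 8 sites follow, in capitals with 10 bases on each side, because the expression levels of these neighbours differed so widely.

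Mmp13, chr9:7272469-7272495, plus strand: cccaaagtggTGACTCAtcactatcat
Mmp12, chr9:7347320-7347346, plus strand: acatcaacagTGAGTCAgatagaggat
Mmp1b, chr9:7388103-7388129, minus strand: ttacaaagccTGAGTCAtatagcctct
Mmp3, chr9:7445766-7445792, plus strand: gaagcaattaTGAGTCAgttttcgggt
Mmp1a, chr9:7464058-7464084, plus strand: ttgtcaaccaTGAGTCAcatagcctct
Mmp10, chr9:7502269-7502295, plus strand: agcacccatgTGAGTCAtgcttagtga
Mmp20, chr9:7628126-7628152, plus strand: atttgagacaTGAATCAtcacttacag
Mmp7, chr9:7692017-7692043, plus strand: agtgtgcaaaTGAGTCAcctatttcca

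Of these 8 genes, Mmp3 was at 50.4 to 65.7 FPKM in the 4 samples. Mmp12 was the next, with at most 1.22 FPKM, and the other 6 were at or below 0.211 FPKM in every sample. Mmp1a, Mmp1b and Mmp20 were listed at 0 throughout.

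**Figure D1:**
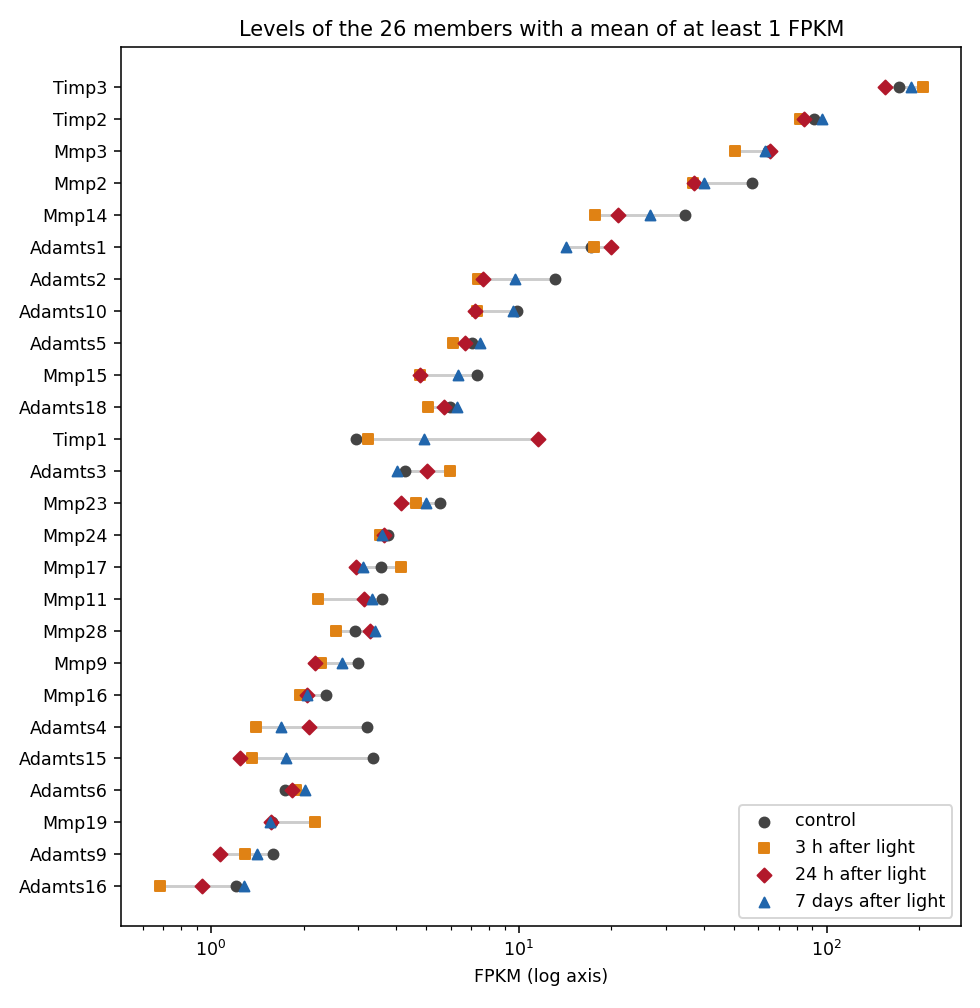
FPKM of the 26 members with a mean of at least 1 FPKM (log axis), 1 point per condition, ordered by mean. Timp1 has its 24 h point far to the right of its other points, and Mmp2, Mmp14, Adamts2, Adamts4 and Adamts15 have the control as their highest point.

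The levels spanned a wide range. Timp3 had the highest mean (180.3 FPKM), followed by Timp2 (88.7), Mmp3 (61.0), Mmp2 (42.8), Mmp14 (25.0) and Adamts1 (17.2 FPKM), and the remaining 20 of the 26 had means below 10 FPKM. The files give no depth. A rough value comes from olfactory receptor genes detected in only 1 of the samples, taken here to hold 1 fragment each, whose median was 0.0255 to 0.0467 FPKM. For genes about as long, counting error is then 7.14% to 9.66% at 5 FPKM and 16.0% to 21.6% at 1 FPKM. The 95% intervals given with ratios below rest on this scale and cover counting error only, not the spread between mice. A longer transcript holds more fragments at the same FPKM, so its interval is too wide here. An interval that includes 1 therefore does not show that a gene was unchanged.

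As to the tissue, transcripts of rods, lens, pigment epithelium and ocular surface were present in every sample, for example Krt12 of the corneal epithelium at 1680 to 2171 FPKM and Rpe65 of the pigment epithelium at 80.8 to 146.7 FPKM. Their levels also differed between samples. At 24 h all 22 skeletal muscle markers were below the control (median log2 change -0.67), as were 48.6% of all genes. Of 9 rod markers, 8 were lower by 0.5 log2 units, against 2.94% of all genes. At 3 h all 11 surface epithelium markers were above the control, while 45.7% of all genes were below it. This was not particular to 3 h: in the 7-day sample all 11 were above the control too, and in the 24 h sample 9 were. Only 2 of the 11, Krt14 and Krt16, were higher by 0.5 log2 units at 3 h, against 2.56% of all genes. Krt16 (0.442, 1.97, 0.515 and 1.52 FPKM) reached a mean of 1 FPKM only through its 3 h and 7-day values. Of 4 adipocyte markers with a mean of at least 1 FPKM, 3 were higher by 1 log2 unit at 3 h, against 0.55% of all genes. Cidec, 1 of these 3, was at 0.520 FPKM in the control and 3.31 FPKM at 3 h. It reached that mean only through the 3 h sample. The part of these tissues in the members' values was not tested. The extraction text in the labels speaks of removed retinas, while the samples are labelled as eyes and held transcripts of the other tissues too. The Y-linked gene Ddx3y was at 6.59 FPKM in the 7-day sample, at 0.00528 FPKM in the 24 h sample and at 0 in the others. Xist, which is transcribed from the inactive X chromosome of female cells, was at 47.2, 53.8, 53.8 and 37.1 FPKM. The 7-day sample thus held male tissue beside female tissue, and its mix of sexes and its time cannot be told apart for any member. In whole eyes, fewer cells of a type and less RNA per cell cannot be told apart either.

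The inhibitors come first. Timp1, a secreted inhibitor that is induced by cytokines in many tissues, was at 2.96 FPKM without light and at 3.23 (3 h), 11.5 (24 h) and 4.91 FPKM (7 days) after it. The 24 h sample stood above the other 3, which were much closer to each other. Against the control, Timp1 was 3.89-fold higher at 24 h (counting interval 2.99 to 5.07, log2 change 1.66). The ratio was 1.09 at 3 h (0.779 to 1.53) and 1.66 at 7 days (1.25 to 2.19, log2 change 0.58). From 3 h to 24 h Timp1 was 3.57-fold higher (log2 change 1.57), and from 24 h to 7 days it was at 0.426 of its level (log2 change -1.08).

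Timp1 lies on the X chromosome, inside the synapsin gene Syn1 and on the opposite strand, with no shared exon in GENCODE. The strand of the libraries is not stated, but Syn1 was at 4.03 to 4.65 FPKM in the 4 samples. Gfap, the filament of reactive glia, was at 18.3 FPKM without light and at 15.5 (3 h), 93.0 (24 h) and 36.8 FPKM (7 days) after it, and so was high in the same sample as Timp1. It was the only one of 6 Müller glia markers past 1 log2 unit at 24 h, when 3 of the 6 were above 0 and 3 below. Glul, the most abundant of them, was at 769.4 FPKM in the control and 394.9 FPKM at 24 h, and the 6 together summed to 1062 and 711.3 FPKM. The 12 measured microglia and macrophage markers summed to 109.7 FPKM in the control, 119.1 at 24 h and 257.0 at 7 days. Of the 12, 7 were higher by 1 log2 unit at 7 days, against 0.409% of all genes, and none at 24 h, against 0.747%. None of the markers in these lists was at 0, and their part in the Timp1 values was not tested.

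Timp3, which binds to extracellular matrix and is deposited by the pigment epithelium into Bruch's membrane, was at 172.4 FPKM without light and at 205.8 (3 h), 154.5 (24 h) and 188.3 FPKM (7 days) after it. It was highest at 3 h and lowest at 24 h, the sample in which Timp1 was highest, but its largest difference from the control was a log2 change of 0.25, at 3 h. From 3 h to 24 h its log2 change was -0.41, the lowest of the 26 members in that comparison (ratio 0.751, counting interval 0.720 to 0.783). Timp2, which both inhibits and helps activate pro-Mmp2, was at 91.2, 82.2, 84.4 and 96.8 FPKM in the same order of samples. Its highest value was 1.18 times its lowest.

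Timp4 did not reach the mean of 1 FPKM. It was at 0.602 FPKM without light and at 1.52 (3 h), 0.715 (24 h) and 0.982 FPKM (7 days) after it, and was thus highest at 3 h (ratio 2.53, counting interval 1.34 to 4.77). It shares exon sequence with Syn2 on the opposite strand in GENCODE, so its low values are uncertain. Syn2 was at 4.13 to 4.62 FPKM. Timp3 likewise shares exon sequence with Syn3, which was at 1.31 to 1.38 FPKM, far below Timp3.

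The summed level of the 4 TIMPs was 267.2 FPKM without light and 292.7 (3 h), 251.2 (24 h) and 291.0 FPKM (7 days) after it. Timp3 made up 61.5% to 70.3% of it. The share of Timp1 was 1.11% without light and 1.10% (3 h), 4.59% (24 h) and 1.69% (7 days) after it, so Timp1 remained a small part of TIMP transcripts even where it was highest. The 42 protease genes summed to 263.4 FPKM without light and 193.1 (3 h), 215.2 (24 h) and 225.5 FPKM (7 days) after it. The ratio of TIMP to protease sums was 1.01 in the control and 1.52, 1.17 and 1.29 in the light samples. Mmp2, Mmp3 and Mmp14 together made up 77.8% to 81.7% of the metalloproteinase sum, so these sums largely follow 3 genes.

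**Figure D2:**
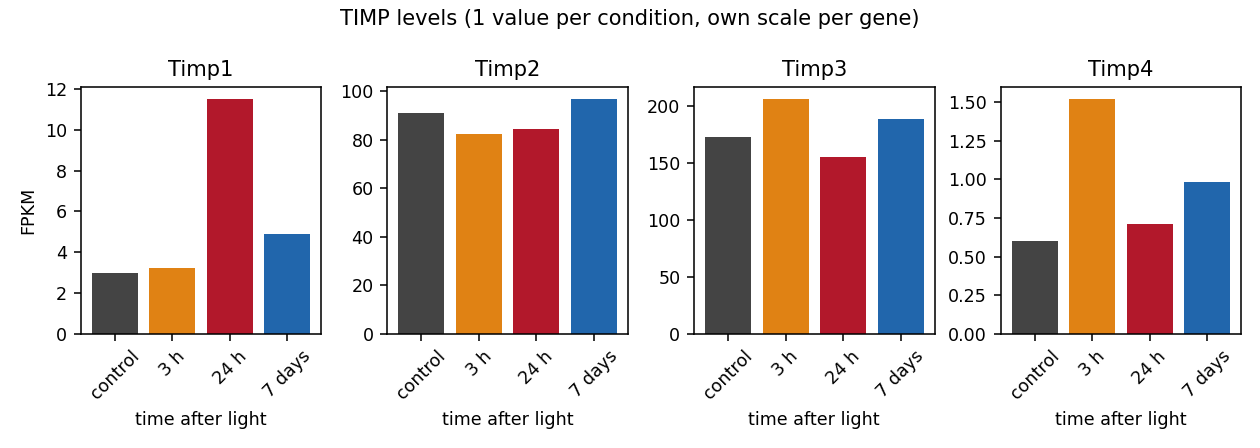
FPKM of the 4 TIMP genes in the 4 conditions, 1 bar per condition and a separate scale from 0 for each gene. Timp1 is highest at 24 h (11.5 FPKM) and Timp4 at 3 h (1.52 FPKM). The highest value is 1.18 times the lowest for Timp2 and 1.33 times for Timp3.

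Gelatinases cut denatured collagen and the collagen of basement membranes. Mmp2, the gelatinase made by fibroblasts and many other stromal cells, was at 57.4 FPKM without light and at 36.8 (3 h), 37.0 (24 h) and 40.1 FPKM (7 days) after it. All 3 light samples lay below the control and close to one another, with ratios of 0.641 (counting interval 0.587 to 0.701), 0.646 (0.595 to 0.700) and 0.699 (0.649 to 0.752). Mmp9, the gelatinase of neutrophils and of stressed epithelia, was low at 3.00 FPKM in the control and 2.27, 2.18 and 2.66 FPKM after light. Each of its ratios to the control had a counting interval that includes 1.

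The membrane-type metalloproteinases act at the cell surface. Mmp14, which cuts fibrillar collagen and activates pro-Mmp2, was at 34.6 FPKM without light and at 17.7 (3 h), 21.0 (24 h) and 26.7 FPKM (7 days) after it. It was lowest at 3 h, at 0.510 of the control (counting interval 0.451 to 0.577, log2 change -0.93), and each later sample was closer to the control. Mmp15 was at 7.33, 4.79, 4.78 and 6.33 FPKM, a log2 change of -0.53 at both 3 h and 24 h and of -0.18 at 7 days. Mmp16 (2.37, 1.95, 2.04 and 2.05 FPKM), Mmp17 (3.55, 4.14, 2.96 and 3.11 FPKM) and Mmp24 (3.77, 3.54, 3.65 and 3.58 FPKM) differed less. The highest Mmp24 value was only 1.07 times its lowest, the smallest such ratio among the 26, although Mmp24 shares exon sequence with a gene on the opposite strand. Mmp25 stayed at or below 0.0648 FPKM.

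Among the stromelysins, Mmp3, which has a broad range of matrix substrates, was at 64.6, 50.4, 65.7 and 63.3 FPKM in the order of the samples. Only the 3 h sample stood apart, at 0.780 of the control (counting interval 0.721 to 0.844). Mmp11, also lowest at 3 h, was at 3.59, 2.23, 3.15 and 3.34 FPKM, but it shares exon sequence with the abundant Chchd10 on the opposite strand (157.7 to 172.2 FPKM), so fragments of either gene may have been assigned to the other. Mmp10 was at or below 0.0710 FPKM.

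The other metalloproteinases with a mean of at least 1 FPKM were Mmp19, Mmp23 and Mmp28. Mmp19 was at 1.58, 2.18, 1.56 and 1.55 FPKM, highest at 3 h. Mmp23 was at 5.53, 4.62, 4.15 and 4.99 FPKM. Mmp28, or epilysin, was at 2.93, 2.55, 3.28 and 3.40 FPKM. Among their ratios to the control, only that of Mmp23 at 24 h, 0.752, had a counting interval without 1 (0.584 to 0.967). Mmp19 and Mmp28 share exon sequence with genes on the opposite strand.

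Collagenases start the breakdown of fibrillar collagen. None of the 4 collagenase genes reached 1 FPKM in any sample: Mmp1a and Mmp1b were listed at 0, Mmp8, the neutrophil collagenase, stayed at or below 0.0969 FPKM and Mmp13 at or below 0.211 FPKM. The macrophage elastase gene Mmp12 was at 0.380 FPKM without light and at 0.486 (3 h), 1.22 (24 h) and 0.960 FPKM (7 days) after it. Its 24 h and 7-day values stood above the other samples, with ratios of 3.22 (counting interval 1.52 to 6.82) and 2.53 (1.20 to 5.32). Mmp12 shares exon sequence with Mmp1b, which was listed at 0.

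The ADAMTS enzymes that cut proteoglycans such as aggrecan and versican differed among themselves. Adamts15 was at 3.35 FPKM without light and at 1.36 (3 h), 1.25 (24 h) and 1.75 FPKM (7 days) after it. The control stood above all light samples, and the ratios were 0.405 (counting interval 0.264 to 0.621), 0.372 (0.250 to 0.554) and 0.524 (0.378 to 0.727), with log2 changes of -0.88, -0.95 and -0.66. Adamts4 was at 3.21 FPKM in the control and 1.40, 2.08 and 1.69 FPKM after light, lowest at 3 h at 0.436 of the control (0.285 to 0.668). As the strand of the libraries is not stated, the level of Adamts4 is uncertain. With a pseudocount of 0.1 in place of 1, Adamts15 at 3 h and 24 h and Adamts4 at 3 h would be past 1 log2 unit.

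Adamts1, first described as a gene of inflammation, was at 17.1, 17.5, 19.9 and 14.2 FPKM, highest at 24 h and lowest at 7 days. Adamts5 (7.05, 6.11, 6.70 and 7.45 FPKM) and Adamts9 (1.59, 1.29, 1.07 and 1.41 FPKM) had no log2 change past 0.5, and Adamts9 shares exon sequence with genes on the opposite strand. The other 2 genes of this group, Adamts8 and Adamts20, were at or below 0.545 FPKM.

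Procollagen N-proteinases remove the amino-terminal propeptide so that collagen fibrils can form. Adamts2, the main enzyme for collagen types I and III, was at 13.1 FPKM without light and at 7.37 (3 h), 7.67 (24 h) and 9.74 FPKM (7 days) after it. The 3 h and 24 h samples were alike and low, at 0.563 (counting interval 0.464 to 0.684) and 0.587 (0.492 to 0.699) of the control, and the 7-day sample lay between them and the control at 0.745 (0.640 to 0.867). Adamts3 was instead highest at 3 h, with 4.28 FPKM without light and 5.98 (3 h), 5.02 (24 h) and 4.03 FPKM (7 days) after it. Its log2 change at 3 h, 0.40, was the highest of the 26 members in that comparison. Adamts14 was at or below 0.298 FPKM.

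Of the other ADAMTS genes, Adamts10, linked to fibrillin microfibrils, was at 9.85, 7.31, 7.23 and 9.58 FPKM, with the 7-day sample close to the control. Adamts18 was at 5.95, 5.08, 5.72 and 6.30 FPKM. Adamts6 was at 1.74, 1.88, 1.83 and 2.02 FPKM. Adamts16 was at 1.20, 0.680, 0.935 and 1.27 FPKM, and the counting interval of its 3 h ratio includes 1 (0.299 to 1.07). Adamts12 (0.956, 0.458, 0.501 and 0.785 FPKM) and Adamts17 (0.884, 0.602, 0.496 and 0.659 FPKM) were highest in the control but below 1 FPKM throughout. Adamts7, which like Adamts12 cuts cartilage oligomeric matrix protein, and Adamts19 were at or below 0.476 FPKM. Adamts13, which cuts von Willebrand factor and is made mainly in the liver, was at or below 0.0301 FPKM.

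Only 2 of the 20 members below a mean of 1 FPKM reached 1 FPKM in any sample, Timp4 and Mmp12. The remaining low members not named above were Mmp7 (at or below 0.0302 FPKM), Mmp21 (at or below 0.125 FPKM) and Mmp27 (0.498 to 0.727 FPKM). Mmp20, the tooth enamel protease, was listed at 0.

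At 3 h, none of the 26 was higher and none lower by 1 log2 unit, against 0.55% and 0.24% of 14194 genes with a mean of at least 1 FPKM. At 0.5 log2 units, 7 were lower (Mmp14, Adamts15, Adamts4, Adamts2, Mmp2, Mmp15 and Mmp11), or 26.9%, against 1.44% of all genes, and none was higher, against 2.56%. The median over the members was -0.19, with 19 of 26 below 0, beside 0.02 and 45.7% for all genes. The 12 metalloproteinases had a median of -0.25 and the 11 ADAMTS genes of -0.19.

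At 24 h, 1 member was higher by 1 log2 unit, Timp1, against 0.747% of all genes, and none was lower, against 0.359%. At 0.5 log2 units, 5 were lower (Adamts15, Adamts2, Mmp14, Mmp2 and Mmp15), or 19.2%, against 2.94% of all genes, and Timp1 alone was higher, against 2.71%. The median was -0.15 with 20 of 26 below 0, beside 0.01 and 48.6% for all genes. Timp1 was thus above the control while the proteases furthest from it were below.

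At 7 days, none was past 1 log2 unit, against 0.409% of all genes higher and 0.19% lower. At 0.5 log2 units, 3 were lower (Adamts15, Adamts4 and Mmp2), or 11.5%, against 0.986% of all genes, and Timp1 was higher, against 1.19%. The median was -0.08 with 18 of 26 below 0, beside 0.00 and 49.1% for all genes. The 3 comparisons share the control sample, and any peculiarity of it enters all 3. With all 46 members and no filter, the medians against the control were -0.09, -0.07 and -0.02. Rescaled to an equal sum of protein-coding genes outside 4 tissue lists, 20, 21 and 18 members lay below 0 at 3 h, 24 h and 7 days, beside 61.1%, 58.1% and 60.8% of all genes. The control was the highest of the 4 samples for 13 of the 26 members (50%), against 22.1% of all genes, and the 3 h sample was the lowest for 13 (50%), against 25.6%.

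**Figure D3:**
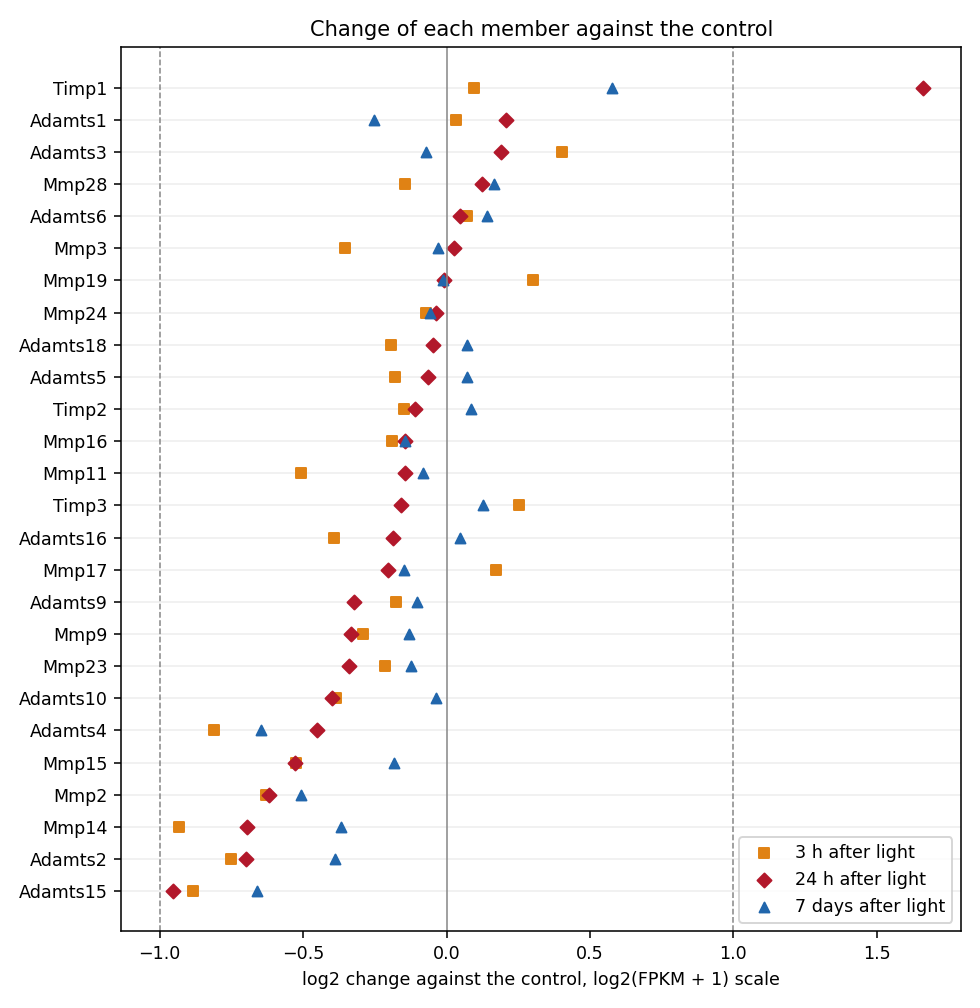
Difference in log2(FPKM + 1) between each light sample and the control for the 26 members, ordered by the 24 h value. Dashed lines mark 1 log2 unit, and only Timp1 at 24 h (1.66) lies beyond them.

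**Figure D4:**
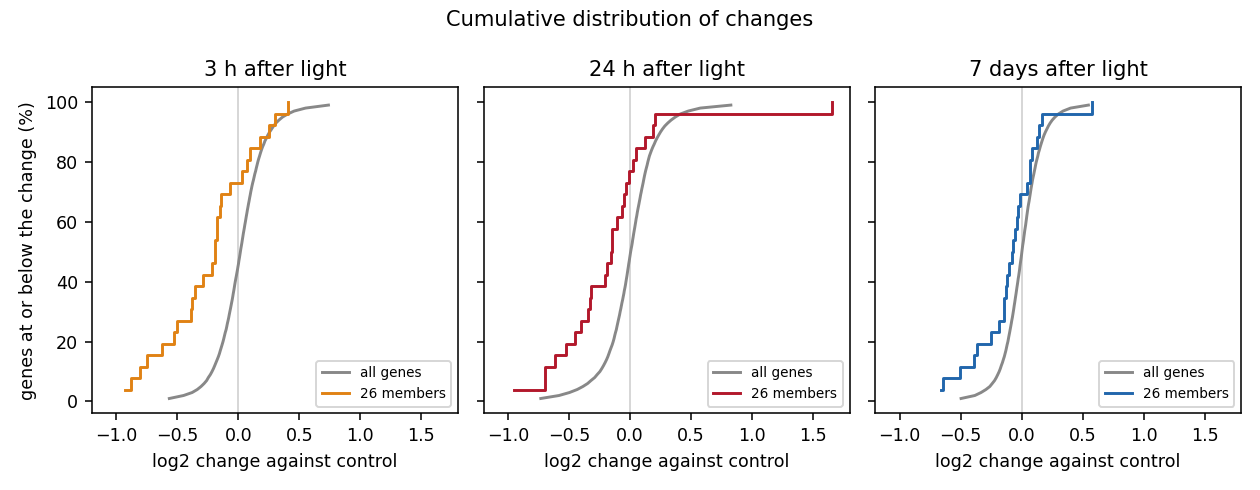
Share of genes (y axis, %) at or below a given log2 change against the control (x axis), for the 26 members and for the 1st to 99th percentile of all 14194 genes with a mean of at least 1 FPKM. The member curve lies to the left of the curve of all genes over most of its range in each panel, with medians of -0.19, -0.15 and -0.08.

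The successive times leave the control out. From 3 h to 24 h, Timp1 was the only member higher by either size (against 0.514% of all genes at 1 log2 unit and 1.92% at 0.5), and none was lower (against 0.437% and 3.09%). The median was 0.04 with 11 of 26 below 0. From 24 h to 7 days, Timp1 was the only member lower by either size (against 0.514% and 1.97%), and none was higher (against 0.296% and 1.66%). The median was 0.12 with 19 of 26 above 0. These 2 comparisons share the 24 h sample. Mmp14, Mmp2, Adamts2 and Adamts15 had log2 changes of 0.33, 0.11, 0.31 and 0.29 from 24 h to 7 days, so each was nearer to its control level in the later sample, whereas Adamts4, at -0.20, was not.

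Matrix genes were read beside the proteases. Of 11 matrix substrate genes, 4 were lower by 1 log2 unit at 3 h, 5 at 24 h and 1 at 7 days, against 0.24%, 0.359% and 0.19% of all genes, and none was higher. Their medians were -0.85, -0.86 and -0.39. Efemp1, a matrix protein of the fibulin family, was at 56.6, 54.2, 71.1 and 67.2 FPKM and thus above the control at 24 h and 7 days, as was Col2a1 at 7 days (9.63 and 10.2 FPKM). Col1a1, a chain of type I collagen, was at 47.8%, 49.2% and 76.3% of the control, and Col3a1, the chain of type III collagen, at 46.0%, 36.7% and 59.6%. Adamts2, which trims both, was at 56.3%, 58.7% and 74.5%. Eln, the elastin gene, was at 31.1%, 26.3% and 44.3% of the control.

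The fibroblast list as a whole was mixed. Its 9 markers, which include Col1a1, Col1a2 and Col3a1, summed to 2072 FPKM without light and 1503 (3 h), 1470 (24 h) and 1868 FPKM (7 days) after it. Of them, 3, 2 and 0 were lower by 1 log2 unit, against 0.24%, 0.359% and 0.19% of all genes. None had a level of 0. Dcn and Lum, the proteoglycan genes of the same list, were at 94.8% to 110.1% and 101.2% to 111.0% of the control in the light samples. The 7 endothelial markers summed to 87.0, 57.9, 79.1 and 86.7 FPKM, with none past 1 log2 unit against the control. At 3 h, 24 h and 7 days, 7, 6 and 5 of them were below the control, beside 45.7%, 48.6% and 49.1% of all genes. Kdr, the 1 marker above the control at 24 h, was at 21.7, 12.9, 31.0 and 29.0 FPKM. Its log2 change from 3 h to 24 h was 1.21, so the 24 h sum leans on this gene. The part of fibroblast and endothelial RNA in the low values of Mmp2, Mmp14 and Adamts2 was not tested.

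**Figure D5:**
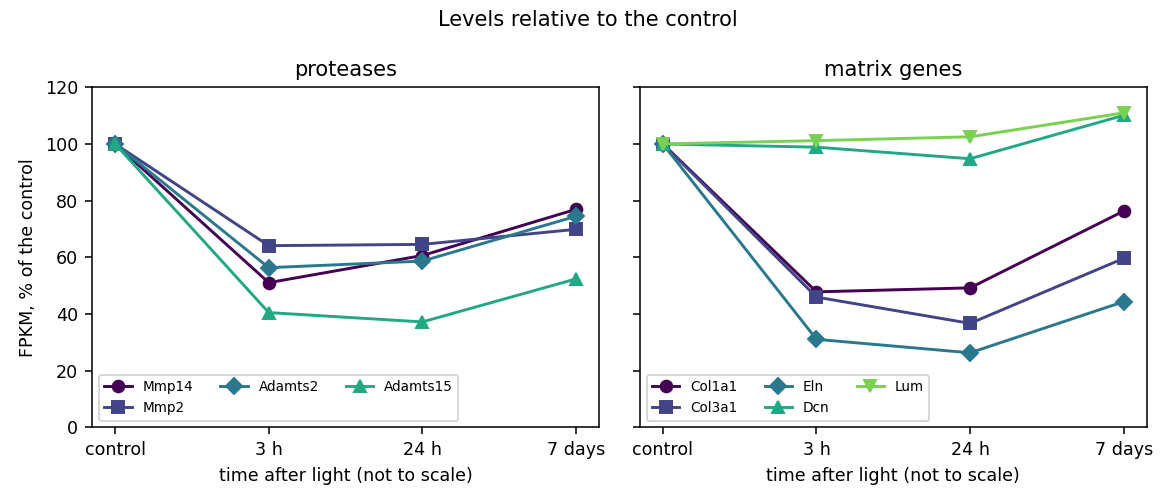
Level as a percent of the control (y axis) in the 4 conditions (x axis, not to scale) for 4 proteases and 5 matrix genes, 1 value per condition. Mmp14, Mmp2, Adamts2 and Adamts15 are at 37.2% to 76.9% of the control after light, Col1a1, Col3a1 and Eln at 26.3% to 76.3%, and Dcn and Lum stay near 100%.

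Other parts of the protease system were read from lists of named genes. Among 6 inhibitors outside the TIMP family with a mean of at least 1 FPKM, none was past 1 log2 unit against the control at any time. A2m, a broad protease trap, was at 83.0 FPKM without light and at 60.7 (3 h), 139.4 (24 h) and 75.4 FPKM (7 days) after it, and so was highest in the same sample as Timp1. Reck, a membrane-anchored inhibitor of metalloproteinases, was at 9.25 to 10.6 FPKM.

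Of 10 activators and clearance genes with a mean of at least 1 FPKM, none was past 1 log2 unit against the control at 3 h or 24 h. Plat, the tissue plasminogen activator, was at 20.2, 11.5, 12.1 and 11.7 FPKM, low in all light samples. Pcsk6, a proprotein convertase, was at 5.46, 10.8, 5.46 and 6.02 FPKM, high at 3 h only. Plg, the plasminogen gene, was at or below 0.0120 FPKM.

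None of 7 ADAM proteases and none of 5 ADAMTS-like genes with a mean of at least 1 FPKM was past 1 log2 unit against the control. Adam19 came nearest, at 2.62, 0.904, 1.15 and 1.62 FPKM. The 5 proteoglycan and other ADAMTS substrates with a mean of at least 1 FPKM had medians of -0.12, -0.13 and -0.01, with none past 1 log2 unit. Among 8 inducing cytokines and AP-1 factors with a mean of at least 1 FPKM, 3 were higher at 3 h (Fos, Jun and Lif). At 24 h 2 were higher (Junb and Fosb) and at 7 days none, against 0.55%, 0.747% and 0.409% of all genes at the 3 times. Lif (0.409, 2.84, 1.05 and 0.393 FPKM) and Fosb (0.484, 1.51, 2.08 and 0.608 FPKM) reached that mean only through the sample in which they were counted as higher. Junb was at 36.6, 63.3, 113.4 and 43.7 FPKM, with its highest value at 24 h as for Timp1. Of 4 neutrophil markers with a mean of at least 1 FPKM, none was higher by 1 log2 unit at 3 h and 1 at 24 h (S100a9). At 7 days 2 were higher (S100a8 and S100a9, at 3.49 and 4.80 FPKM), against the same shares of all genes as above. Camp (0.873, 1.00, 1.09 and 1.10 FPKM) and Ltf (1.47, 1.95, 1.60 and 1.43 FPKM) differed less. The defining marker Mpo was at or below 0.0113 FPKM and at 0 in the control and 3 h samples.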

How the data were processed

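The submitters' processing notes name the mm9 build and the tools Cuffdiff 2.2.1, TopHat2 and bcl2fastq 1.8.3. Cufflinks is named in the series design. The series design also speaks of triplicate, but the authors deposited FPKM values with 1 column per condition. The sources used here do not give whether a column pools or averages mice, nor the gene annotation, library scaling or strand. The control column is headed CTRL and its sample is titled CON, the only sample labelled as a control. Over all genes FPKM summed to 626973 (control), 680305 (3 h), 660426 (24 h) and 672004 (7 days), so the totals differed between samples. The part of abundant transcripts in this was not tested.

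From the deposited FPKM, differences of log2(FPKM + 1) were computed in Python 3.11.15 with pandas 2.3.3 among 14194 genes with a mean of at least 1 FPKM. No test was run. The calling was run on simulated data with counting noise only, where genes of at least 5 FPKM changed by more than the calling size. That simulation has no spread between mice and no changed genes of low level, so it does not cover these limits. All members with a mean of at least 1 FPKM, or a value of at least 1 FPKM in any sample, were to be named with their values. The members and gene lists were chosen with earlier results of these data known. Gene types were matched for 22327 of 22558 symbols. The alternatives were another pseudocount, no filter or a stricter one, 2 rescalings and a smaller change. A filter without the 7-day sample was added after seeing the data. The search for sequence motifs was also chosen after seeing the data. Results on some genes of the lists and on some neighbouring genes are not reported here.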

Additional observations from a re-analysis of the deposited data

Results flagged for a closer look

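Adamts1 was the only one of the 26 members with log2 changes of at least 0.2 on both sides of the control at different times. At 24 h its log2 change was 0.207, and 7 days after light it was -0.251, from values of 17.1, 19.9 and 14.2 FPKM in the control, 24 h and 7-day samples. The difference was not tested, the size of 0.2 was set after the values were seen, and the 7-day sample also differs in its mix of sexes, with Y-linked transcripts and with Xist at 37.1 FPKM against 47.2 in the control.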

How the results depend on the processing

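Of 138 recomputed values, 7 counts moved, either away from 0 or by over 1.5 times. None of the member medians and Timp1 changes among the 138 changed its direction. A filter cannot alter the change of a single gene, so the Timp1 values under the filters only repeat the main ones. Timp1, with a mean of 5.65 FPKM, also passed the filter of 5 FPKM only through its 24 h value. The counts and the FPKM sums have no direction. The sums were judged at 1.5 times, which the small rescalings could not reach, so their lack of movement shows nothing. The member medians depended on the setting. Over the alternatives they were -0.27 to -0.09 at 3 h, -0.19 to -0.07 at 24 h and -0.115 to -0.02 at 7 days against the control, 0.00 to 0.08 from 3 h to 24 h and 0.05 to 0.16 from 24 h to 7 days. The value nearest 0 in each came from using no filter, which adds the 20 low members. With a pseudocount of 0.1, 2 members were lower by 1 log2 unit at 3 h and 1 at 24 h, in place of none, because a smaller pseudocount widens the changes of low genes. At 0.5 log2 units, 7, 5 and 3 members were lower at 3 h, 24 h and 7 days and 1 was higher at 7 days. A mean of at least 5 FPKM left 12 members. Rescaling by the median ratio, or to an equal sum of protein-coding genes outside the lists of surface epithelium, lens, erythroid and muscle genes, shifted samples by at most 0.07 log2 units and changed no count of calls. The second turned the small changes of Adamts1 at 3 h and Mmp3 at 24 h, and of Adamts10 and Mmp15 from 3 h to 24 h, to the other side of 0. The first turned Mmp15 from 3 h to 24 h and Mmp19 from 24 h to 7 days. No paired analysis was possible because each condition has 1 value. Depth limits what can be read from members near or below 1 FPKM.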
